A study of Mus musculus with 9 samples.

Results

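The 6 genes encoding the retinoic acid receptors (RARs; Rara, Rarb and Rarg) and the retinoid X receptors (RXRs; Rxra, Rxrb and Rxrg) of the mouse were examined in differentiating neural stem cells (NSCs). They were taken by exact symbol, and all 6 were present among the 38197 symbols of the deposited tables. The libraries came from wild type E14.1 ESCs of strain 129, which were grown as a monolayer and exposed to retinoic acid (RA) and to SAG, an agonist of the Shh transducer Smo, from 0 to 3 DDC (days in differentiation conditions) by the labels, while the paper's methods have these removed somewhat later. Progenitors were then isolated by their surface antigen prominin-1 at 4.5DDC, 5.5DDC or 6.5DDC, and polyA-selected RNA was sequenced from 3 replicates per time point, giving 9 libraries of 11066572 to 25506192 counts (median 14390493). All groups share genotype, strain and treatment, and time is the only difference that the labels name. Other differences between the groups cannot be read from the labels. No library of untreated cells enters these comparisons. The labels do not say whether the replicates were separate differentiations, so p-values measure only the spread between these libraries, which may be technical.

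RARs are ligand-activated transcription factors that bind all-trans retinoic acid and act on DNA as heterodimers with an RXR. The pair occupies response elements built from direct repeats of a short hexamer, where it recruits corepressors such as NCoR1 in the absence of ligand and exchanges them for coactivators when RA binds. In the embryo RA made by Aldh1a2 posteriorizes the neural tube and switches on Hox genes of the hindbrain, and Cyp26 enzymes degrade it. RXRs also serve as partners of thyroid hormone, vitamin D, PPAR, LXR and Nr4a receptors, and Rarb is itself a classical direct target of RA.

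Markers of the labelled cell type were detected in every library. The 9 progenitor markers summed to between 2114 and 3120 FPKM per library, most of it Vim (mean 1791 FPKM). Sox2 held 78.2 to 96.0 FPKM in every library. Sox3 (1.44 to 14.4 FPKM) and Hes5 (0.684 to 12.9 FPKM) were lower and varied more. The 4 forebrain and midbrain markers summed to at most 0.361 FPKM, and the 7 pluripotency markers to between 2.59 and 6.82 FPKM, most of it Klf4. Transcripts of neurons were present in these prominin-1 fractions, with a summed level of 9 neuron markers between 179 and 844 FPKM.

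The libraries of replicate 1 stood apart from those of replicates 2 and 3 at all time points. Among the receptors this separation concerns Rarb and, less securely, Rxrg. Across genes, the departure of each library from its time point's mean correlated at 0.74 between replicate 1 at 4.5DDC and at 5.5DDC and at 0.45 between replicate 1 at 5.5DDC and at 6.5DDC. The labels do not state what libraries of the same number share. Time comparisons of the receptors were also fitted without the 3 libraries of replicate 1, and the split by replicate number has its own account after them.

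Rarb, the receptor on which the replicate comparison turns, is a standard example of a gene with an RA response element, and an upstream sequence is shown for that reason. On GRCm38 in the GENCODE M21 annotation the gene lies at chr14:16430839-16819156 on the minus strand. The RefSeq table (GRCm38.p6) held upstream windows of 250 bases for all 6 receptor genes, 13 in all, and for 39 of 51 genes of the pathway lists described further on. Each window was searched on both strands for direct repeats of the hexamer RGKTCA (R is A or G and K is G or T), separated by 1 (DR1), 2 (DR2) or 5 (DR5) bases. The window of Rarb, chr14:16575477-16575726 on the minus strand, is given 5′ to 3′ with the DR5 match in capitals.
Rarb: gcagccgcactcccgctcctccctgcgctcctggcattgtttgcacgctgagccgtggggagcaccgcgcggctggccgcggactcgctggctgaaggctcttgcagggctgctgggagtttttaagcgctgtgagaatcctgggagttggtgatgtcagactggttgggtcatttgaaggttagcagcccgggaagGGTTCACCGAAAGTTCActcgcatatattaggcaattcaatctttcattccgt
This RefSeq start lies inside the GENCODE span of the gene and not at its 5′ end, and the match occupies the bases from 53 to 37 upstream of it. Windows with a DR5 match were rare, 29 of 32841 (0.0883%), against 0.164% for DR1 and 0.174% for DR2. The windows of the other 5 receptor genes held none of these direct repeats. Among the pathway genes with a window, Cyp26a1, whose enzyme degrades RA, also had a DR5 match, at chr19:37697776-37697792, on the strand opposite to the gene. It is shown in capitals with 6 flanking bases on either side, read along the gene.
Cyp26a1: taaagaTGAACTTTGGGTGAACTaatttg
These matches describe the letters of the windows, and receptor binding was not measured in these libraries.

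The remaining receptor genes lie on different chromosomes of GRCm38. Rara is at chr11:98927818-98974942 on the plus strand, Rarg at chr15:102234938-102257517 on the minus strand, Rxra at chr2:27676440-27762957 on the plus strand, Rxrb at chr17:34031812-34038399 on the plus strand and Rxrg at chr1:167598384-167639623 on the plus strand. No exon of these 5 genes overlaps an exon of another annotated gene. For Rarb, 38.4% of the exonic bases overlap exons of Top2b and Gm48162 on the opposite strand, and since the strand setting of the counting is not stated, reads in that stretch cannot be assigned with certainty. Top2b ranged from 85.9 to 127 FPKM over the 9 libraries.

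Rara was the most abundant RAR in most libraries. Rara encodes RARα, the broadly expressed receptor of the family. Its level was 16.8, 23.8 and 11.2 FPKM in replicates 1, 2 and 3 at 4.5DDC, 18.4, 20.3 and 19.5 FPKM at 5.5DDC, and 6.51, 6.96 and 16.6 FPKM at 6.5DDC. The 5.5DDC libraries were tightly grouped and all above those of 6.5DDC, where replicates 1 and 2 were low and replicate 3 was not. The mean was 17.3 ± 6.28 FPKM (SD, n = 3) at 4.5DDC, 19.4 ± 0.944 at 5.5DDC and 10.0 ± 5.69 at 6.5DDC.

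Rarb, encoding the RA-inducible RARβ, divided the libraries by replicate number and not by time. Its level was 0.919, 9.22 and 11.6 FPKM in replicates 1, 2 and 3 at 4.5DDC, 0.198, 8.98 and 8.54 FPKM at 5.5DDC, and 0.799, 9.03 and 7.63 FPKM at 6.5DDC. Replicate 1 was low at every time point, and its highest value lay far below the lowest value of replicates 2 and 3. The corresponding counts were 62, 19 and 38 in replicate 1 and between 356 and 638 in replicates 2 and 3, so the low values rest on reads above the floor of 3 counts. Over the 6 libraries of replicates 2 and 3 the level was 9.16 ± 1.31 FPKM (SD), and over the 3 of replicate 1 it was 0.639 ± 0.386 FPKM.

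Rarg, encoding RARγ, was the least abundant RAR in 8 of the 9 libraries. It ranged from 0.284 to 0.955 FPKM with a median of 0.568, on 12 to 38 counts per library. The highest and the lowest value were both at 6.5DDC, so the time points overlapped throughout. Only the library of replicate 1 at 5.5DDC had less Rarb than Rarg, at 0.198 against 0.568 FPKM.

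**Figure D1:**
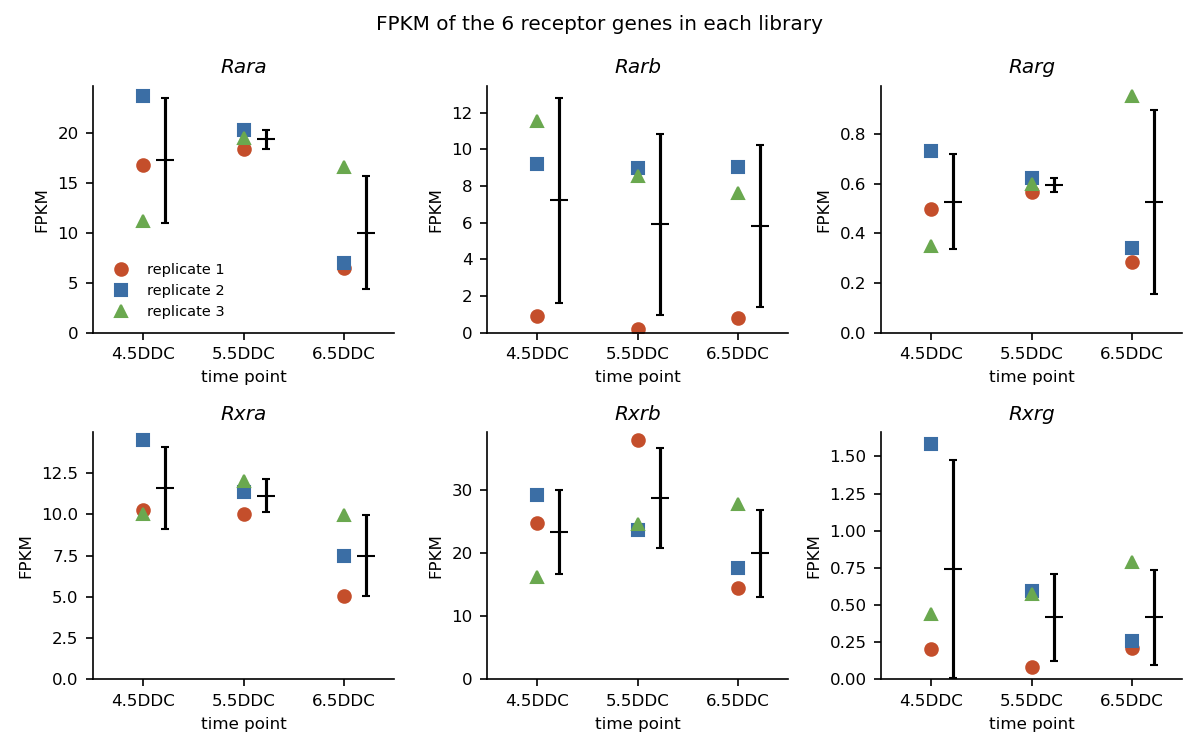
FPKM of each receptor gene (vertical axis, linear, different range in each panel) at the 3 time points (horizontal axis). Each symbol is a library, coloured by replicate number, and black bars give the mean ± SD of the 3 libraries of a time point; the 3 orange points of Rarb lie between 0.198 and 0.919 FPKM and the others between 7.63 and 11.6.

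Among the RXRs, Rxrb was the leading gene and ranked highest of the 6 receptor genes in all 9 libraries. Its level was 24.8, 29.1 and 16.1 FPKM in replicates 1, 2 and 3 at 4.5DDC, 37.8, 23.6 and 24.6 FPKM at 5.5DDC, and 14.5, 17.6 and 27.7 FPKM at 6.5DDC. No time point or replicate number separated from the others. Rxra had 10.3, 14.5 and 10.1 FPKM at 4.5DDC, 10.0, 11.3 and 12.0 FPKM at 5.5DDC, and 5.05, 7.48 and 9.99 FPKM at 6.5DDC. All 3 libraries of 6.5DDC were below all those of the earlier time points, although replicate 3 at 6.5DDC (9.99 FPKM) lay next to replicate 1 at 5.5DDC.

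Rxrg, encoding the RXR of most restricted expression, was near the limit of detection. It had 0.206, 1.58 and 0.436 FPKM in replicates 1, 2 and 3 at 4.5DDC, 0.0786, 0.595 and 0.576 FPKM at 5.5DDC, and 0.209, 0.254 and 0.787 FPKM at 6.5DDC. The replicate 1 libraries were again the lowest, on 7, 4 and 5 counts against 8 to 35 in the others, but here the groups were separated by few reads. In CPM, 3 counts correspond to 0.118 to 0.271 across the libraries, and this floor covers counting error only.

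In FPKM the usual order of levels was Rxrb, Rara, Rxra, Rarb, Rarg and Rxrg. Rara ranked 2nd in 7 libraries, 3rd in replicate 3 at 4.5DDC and 4th in replicate 2 at 6.5DDC, and in these last libraries Rarb ranked 2nd. Neighbours in this order were not all separated by their spread. The ranges of Rxrb (14.5 to 37.8 FPKM) and Rara (6.51 to 23.8 FPKM) overlapped, as did those of Rara and Rxra (5.05 to 14.5 FPKM), of Rxra and Rarb, and of Rarg and Rxrg. Outside replicate 1, the lowest value of Rarb (7.63 FPKM) was above the highest of Rarg and Rxrg (1.58 FPKM).

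The composition of the RAR subfamily followed the replicate number as well. Rarb made up 5.05%, 1.03% and 10.5% of the summed RAR level in replicate 1 at 4.5DDC, 5.5DDC and 6.5DDC, and 27.3% to 55.3% in the 6 other libraries. Rara correspondingly held 85.7% to 96.0% in replicate 1 and 42.6% to 70.5% elsewhere. The RXR sum exceeded the RAR sum in every library, by a ratio of 1.93 to 2.60 in replicate 1 and of 1.15 to 1.55 in the others. Within the RXRs, Rxrb contributed 60.6% to 78.9%, Rxra 20.9% to 37.8% and Rxrg at most 3.50%.

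**Figure D2:**
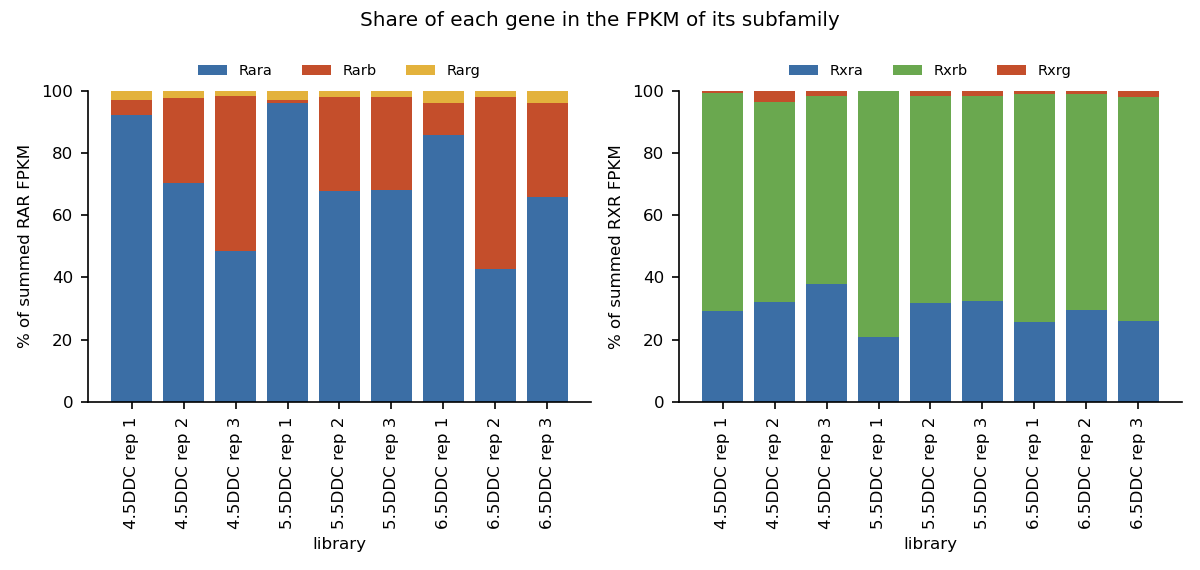
Share of each gene in the summed FPKM of its subfamily (vertical axis, %) for the 9 libraries (horizontal axis), RARs on the left and RXRs on the right. Rarb takes 1.03% to 10.5% of the RAR sum in the bars of replicate 1 and 27.3% to 55.3% in the rest.

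With time, the shares did not separate. Between 4.5DDC and 6.5DDC, the share of Rarb in the RARs was 27.4% ± 22.5 and 32.1% ± 22.4 (SD, n = 3 each; two-sided exact permutation test, p = 0.7). The ratio of RXR to RAR was 1.47 ± 0.410 at 4.5DDC and 1.89 ± 0.612 at 6.5DDC (p = 0.5, exact permutation test). The shares of the 6 genes gave exact permutation p-values of 0.2 to 0.7, and 3 libraries against 3 cannot give less than 0.1.

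To ask whether the receptors changed over the 2 days examined, counts of all 14742 genes that passed the filter on low counts were fitted together with edgeR, with Benjamini-Hochberg adjustment and a threshold of 0.05. All 6 receptor genes passed the filter and none was called between 4.5DDC and 5.5DDC, where 0.0746% of genes were called, between 5.5DDC and 6.5DDC (0.224%) or between 4.5DDC and 6.5DDC (18.7%, and 9.53% called as lower at 6.5DDC). At an unadjusted p under 0.05 edgeR gave 0, 2 and 1 receptor genes in these comparisons, beside 2275, 2733 and 5218 of the 14742 genes. After adjustment, limma voom, DESeq2 and limma on log2 FPKM also called 0 receptor genes. A test of any difference between the 3 time points called 9.63% of genes and 0 of the receptors with edgeR. Adjusted p-values from limma voom, DESeq2 and limma on log2 FPKM gave 0 receptors in it as well. At an unadjusted p under 0.05 edgeR gave 1 receptor gene (Rxra), beside 4242 of the 14742 genes.

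The lowest p-values with time belonged to Rara and Rxra, both on the lower side at 6.5DDC. For Rara the value from 5.5DDC to 6.5DDC was −0.87 on the log2 scale (SE 0.32, edgeR adjusted p = 0.214), lower in 3 of 3 replicates. For Rxra it was −0.56 (SE 0.22, edgeR adjusted p = 0.228) over the same interval, lower in 3 of 3 replicates. From 4.5DDC to 6.5DDC the value of Rxra was −0.60 (SE 0.22, edgeR adjusted p = 0.0841), without overlap of the libraries. None of these passed the threshold. With 1 library left out the values from 5.5DDC to 6.5DDC ranged from −1.35 to −0.66 for Rara and −0.79 to −0.37 for Rxra. In FPKM, the decline of Rara from 19.4 to 10.0 and that of Rxra from 11.1 to 7.50 between 5.5DDC and 6.5DDC each had the smallest p that 3 against 3 libraries allow (two-sided exact permutation test, p = 0.1), as did Rxra between 4.5DDC and 6.5DDC.

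Libraries of the time points failed to overlap for 2 of the 6 receptor genes between 5.5DDC and 6.5DDC (Rara and Rxra), beside 25.4% of all genes, for 1 between 4.5DDC and 6.5DDC (Rxra, 35.1% of all genes) and for 0 between 4.5DDC and 5.5DDC (25.4% of all genes). The calls of Rara and Rxra changed with the omission of 1 library. Without replicate 3 of 6.5DDC, in which both were high for their time point, edgeR called both between 4.5DDC and 6.5DDC, at −1.14 for Rara (adjusted p = 0.0203) and −0.83 for Rxra (edgeR adjusted p = 0.0338), and Rara for any difference (edgeR adjusted p = 0.0350). Over all alternatives the edgeR, limma and DESeq2 adjusted p from 4.5DDC to 6.5DDC ranged from 0.0203 to 0.457 for Rara and from 0.0338 to 0.255 for Rxra.

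Rxrb gave log2 fold changes of 0.31 (SE 0.28) from 4.5DDC to 5.5DDC and −0.61 (SE 0.28) from 5.5DDC to 6.5DDC, and Rarg of −0.01 (SE 0.36) and −0.33 (SE 0.37). The first value of Rxrb was 0.04 without replicate 1 of 5.5DDC and 0.07 with the GC offset described below, and its later value was −0.34 without that library and −0.22 on replicates 2 and 3 alone. Neither gene passed the test, and both values of Rarg lay within 1 SE of 0. For Rarb the standard errors were wide, 1.19 on the log2 scale in each comparison. Replicate 1 was set against replicates 2 and 3 within every time point. The values of Rarb were −0.37 for the earlier interval and 0.02 for the later, and −1.34 and 1.32 with limma voom. Fitted on replicates 2 and 3 alone, a choice made after seeing the data, Rarb gave −0.37 from 4.5DDC to 6.5DDC (edgeR adjusted p = 0.202). Between 5.5DDC and 6.5DDC that fit gave −0.70 for Rara and −0.44 for Rxra, and over the whole span −0.48 and −0.47. In it 0 of the 6 receptor genes were called in any time comparison, while 485, 728 and 4586 genes were called in the 3 pairs of time points. With the replicate number as a paired block, used for adjacent time points, 212 genes in place of 11 were called from 4.5DDC to 5.5DDC and 195 in place of 33 from 5.5DDC to 6.5DDC, again with 0 receptor genes.

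Whether a receptor changed by another amount in the 2nd interval than in the 1st was tested as the difference between both changes. edgeR called 0% of genes, with 701 of 14742 at an unadjusted p under 0.05, and limma voom, DESeq2 and limma on log2 FPKM also called 0. The largest differences among the receptors that were well counted were −1.08 (SE 0.54) for Rara and −0.92 (SE 0.47) for Rxrb, both with an edgeR adjusted p of 0.760. The value of Rxrb was −0.38 without replicate 1 of 5.5DDC, and with the GC offset described below the values were −0.45 for Rara and 0.01 for Rxrb.

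**Figure D3:**
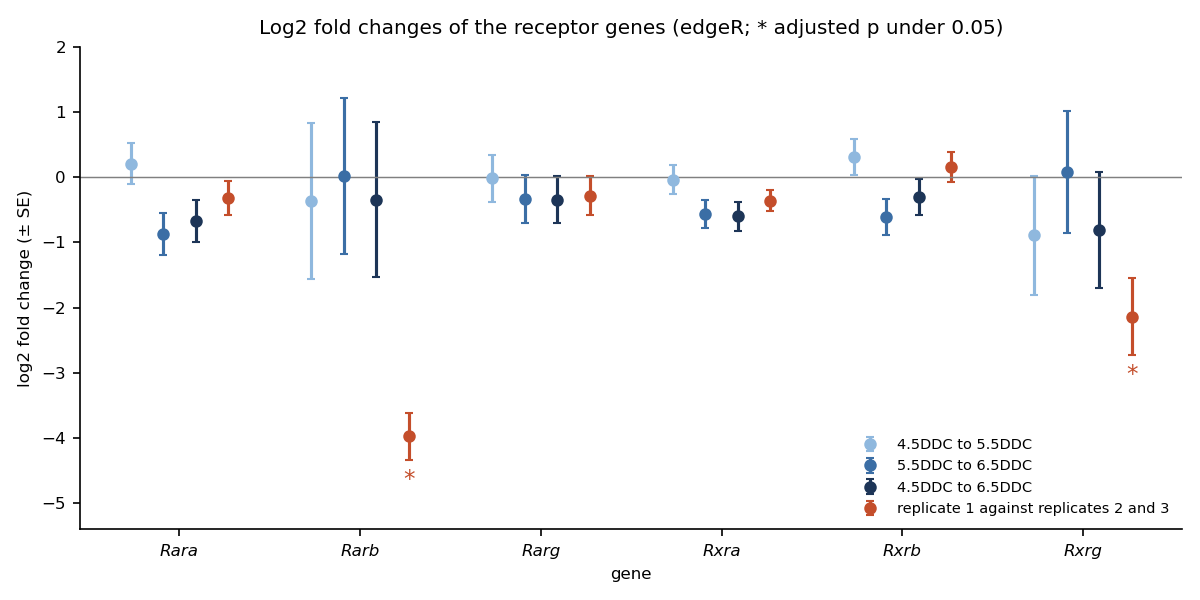
Log2 fold changes from the edgeR fits (vertical axis, with SE bars) of the 6 receptor genes (horizontal axis) for the 3 pairs of time points and for replicate 1 against replicates 2 and 3. Stars mark an adjusted p under 0.05, which only Rarb (−3.98) and Rxrg (−2.14) reached, in the comparison by replicate number.

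A measure based on GC content moved with several receptor genes, and whether it is technical was not tested. The transcripts of Rxrb, Rara, Rarg and Rxra have a GC content of 61.4%, 59.2%, 58.8% and 57.0%. These lie above 98.2%, 94.5%, 93.4% and 87.7% of the tested genes that have a value. That of Rxrg, at 54.6%, is above 76.4% of them, whereas that of Rarb, at 47.8%, is above 40.4%. In each library the mean deviation of GC-rich genes (those in the upper quartile) minus that of GC-poor genes (those in the lower quartile) was computed on the log2 scale. It was 0.16, 0.46 and −0.39 in replicates 1, 2 and 3 at 4.5DDC, 0.46, 0.20 and 0.22 at 5.5DDC, and −0.51, −0.68 and 0.08 at 6.5DDC. Rara, Rarg and Rxrb were below their own means in the 3 libraries where this value was negative, namely replicate 3 at 4.5DDC and replicates 1 and 2 at 6.5DDC, and Rxra was below its mean in the last 2 of these.

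With the GC trend of each library taken as an offset, an alternative chosen after seeing the data, the log2 value for 6.5DDC relative to 5.5DDC became −0.39 for Rara, −0.15 for Rxra and 0.08 for Rxrb. Over the whole span Rara went from −0.67 to −0.33 and Rxra from −0.60 to −0.32, and no receptor gene was called in any time comparison or had an unadjusted p under 0.05. The signs of Rxrb, Rarg and Rarb from 5.5DDC to 6.5DDC turned with the offset, as did that of Rxrb over the whole span. The part of GC content in the time values was otherwise not tested.

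**Figure D4:**
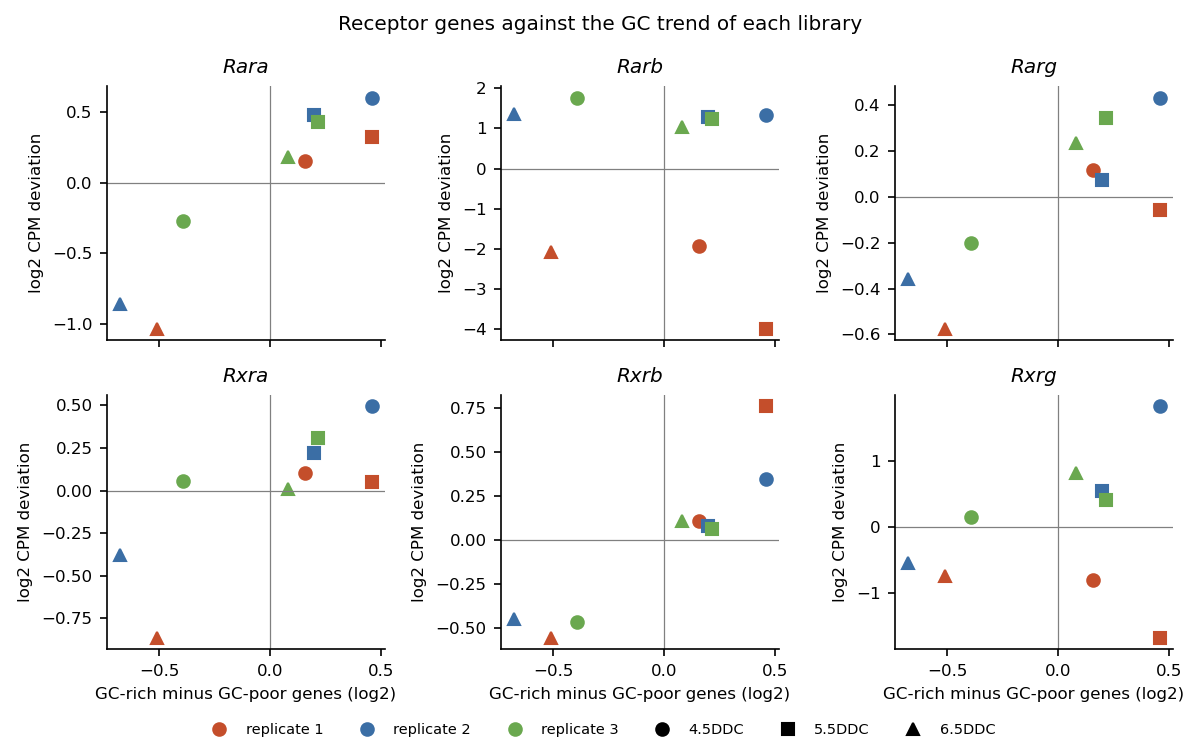
Deviation of each receptor gene from its mean over the 9 libraries (vertical axis, log2 CPM) against the deviation of GC-rich minus GC-poor genes in the same library (horizontal axis, log2). Colours give the replicate number and symbols the time point; Rara, Rarg and Rxrb lie below 0 in the 3 libraries at the left, and Rarb is below 0 in the 3 orange points alone.

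The replicate number was then compared across time points, with the time point as a factor. This split was chosen with its outcome known, so the tests describe these libraries and are no independent evidence. The fit also took the 3 libraries of replicate 1 as independent of each other. The labels do not state whether they come from a common culture, in which case the p-values would be too small. edgeR called 12.8% of genes between replicate 1 and replicates 2 and 3, and 7.08% as lower in replicate 1. Of the 6 receptor genes 2 were called, Rarb and Rxrg, both lower in replicate 1. All libraries of replicate 1 were below all others for these 2 genes and for 5.13% of all genes.

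Rarb was lower in replicate 1 by a log2 fold change of −3.98 (SE 0.36, edgeR adjusted p = 0.000151). The difference was present at each time point, at −3.48 for 4.5DDC, −5.24 for 5.5DDC and −3.27 for 6.5DDC on the log2 scale, replicate 1 minus the mean of the others. By p-value it ranked 43rd among the genes tested. It was called under all 21 alternatives, with log2 fold changes between −4.30 and −2.65. The GC offset left it at −3.98, and Top2b, which shares exonic bases with Rarb, gave −0.31 (SE 0.13, edgeR adjusted p = 0.158).

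Rxrg gave −2.14 (SE 0.59, edgeR adjusted p = 0.0356) in the same comparison, at −1.79, −2.15 and −0.88 at the successive time points. This call was less secure. It was lost when any of 6 libraries was left out (replicate 1 or 2 at 4.5DDC, any replicate at 5.5DDC, or replicate 3 at 6.5DDC), with an edgeR adjusted p between 0.0515 and 0.178, and with limma voom (adjusted p = 0.0598). All values for Rxrg remained below 0, and over all alternatives the adjusted p ranged from 0.0123 to 0.269.

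The other receptors were closer between the replicate numbers. Rara gave −0.32 (SE 0.26), Rarg −0.28 (SE 0.30), Rxra −0.36 (SE 0.16) and Rxrb 0.16 (SE 0.23), with edgeR adjusted p-values of 0.550, 0.663, 0.193 and 0.777. With 1 library left out the values ranged from −0.44 to −0.10 for Rara, −0.42 to −0.16 for Rarg and −0.44 to −0.20 for Rxra. The GC offset made Rxra a call at −0.41 (edgeR adjusted p = 0.0127), and Rxrb fell below 0, to −0.14, without replicate 1 of 5.5DDC. Whether the difference of Rarb exceeds that of the other receptors was not tested.

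Markers of other cell types moved with the replicate number. The neuron markers summed to 183, 179 and 366 FPKM in replicate 1 at 4.5DDC, 5.5DDC and 6.5DDC and to between 323 and 844 FPKM in the other libraries, and at each time point replicate 1 was the lowest. Of the 9 neuron markers 8 were called as lower in replicate 1 (7.08% of all genes), among them Dcx, a microtubule protein of young neurons, at −2.09 (SE 0.16), and Gap43, a growth cone protein and the most abundant of the list, at −1.92 (SE 0.31). In bulk RNA fewer cells of a type and less RNA per cell cannot be told apart.

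The endoderm markers ran the other way. They summed to 45.8, 45.0 and 65.6 FPKM in replicate 1 and to 21.7 to 35.8 FPKM elsewhere. All 5 that were tested were called as higher in replicate 1, beside 848 of all 14742 genes called as higher (12.8% in either direction). Most of the sum was Foxa1 (mean 33.5 FPKM), which the floor plate also expresses. All genes of the list were highest in replicate 1 at 6.5DDC. In that library Foxa1 had 50.6, Gata4 7.62, Cubn 2.35, Ttr 2.34, Gata6 1.63, Afp 0.569 and Sox17 0.529 FPKM. No gene of the list was at 0 in all libraries. The 9 progenitor markers summed to a mean of 2784 FPKM in replicate 1 and 2734 FPKM in the others, with 1 of 9 called (Fabp7, lower). These sums are mostly Vim, with means of 2015 and 1679 FPKM, while Fabp7 had 350 and 644 FPKM. Their closeness therefore does not show equal progenitor content.

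Some regional genes of the hindbrain were lower in replicate 1. The 5 ventral hindbrain markers, led by Nkx6-1, summed to 71.0, 55.3 and 41.7 FPKM in replicate 1 and to between 72.0 and 115 FPKM elsewhere, and 3 of the 5 were called as lower (7.08% of all genes): Nkx2-2, Hoxa2 and Hoxb2. Nkx6-1 and Nkx6-2 were not called. Of 5 tested neural crest and mesenchyme markers, 2 were called as lower (Col1a1 and Col1a2), and of 3 tested pluripotency markers 2 as higher (Tfcp2l1 and Klf4) and 1 as lower (Esrrb), all at low levels, where 12.8% of all genes were called. The part of any of these cell populations in the Rarb difference was not tested.

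Genes that supply, bind or clear retinoids were examined in the same comparison. Of 13 tested, 5 were called as lower and 1 as higher in replicate 1, where 12.8% of all genes were called and 7.08% as lower, and 7 were not called, with a median log2 fold change of −0.50 beside 0.01 over all genes. Aldh1a2, which makes RA from retinaldehyde, had 0.0611, 0.0859 and 0.144 FPKM in replicate 1 at the successive time points. In replicates 2 and 3 it had 2.51 and 0.930 FPKM at 4.5DDC, 8.43 and 7.81 FPKM at 5.5DDC, and 8.10 and 8.76 FPKM at 6.5DDC. Replicate 1, with 3, 6 and 5 counts, was at or just above the floor while every other library had at least 37 counts, and the log2 fold change was −5.91 (SE 0.44, edgeR adjusted p = 6.51e-05).

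Dhrs3, which reduces retinaldehyde to retinol, gave −1.85 (SE 0.28), the RA-binding protein Crabp1 −1.24 (SE 0.22) and the RA carrier Fabp5 −1.07 (SE 0.20). Aldh1a3, another RA-producing enzyme, was also called as lower (−2.50, SE 0.66), on 0 to 33 counts. Replicate 1 and the other libraries overlapped for Dhrs3, Crabp1 and Aldh1a3. Rdh10, the enzyme that forms retinaldehyde from retinol, went in the opposite direction with 1.32 (SE 0.17), and its replicate 1 libraries were all above the others.

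Textbook targets of RA were mixed. Of 12 tested, 5 were called as lower and 1 as higher in replicate 1 (12.8% of all genes called, 7.08% as lower), and 6 were not called, with a median of −0.27. Hoxb4, a Hox gene of the posterior hindbrain, had 3.35, 3.60 and 2.49 FPKM in replicate 1 and between 9.45 and 13.1 FPKM in the other libraries, at −1.86 (SE 0.16, edgeR adjusted p = 0.000130). Its replicate 1 libraries were below all others. Hoxa4 gave −1.43 (SE 0.19), Meis2 −0.98 (SE 0.10) and Meis1 −0.73 (SE 0.10), while Stra8, called as higher at 1.94 (SE 0.40), had at most 28 counts. Dhrs3 belongs to this list as well as to the previous one.

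The other gene with a DR5 match in its window did not follow Rarb. Cyp26a1 had 4 to 18 counts and 0.150 to 0.682 FPKM per library and gave 0.02 (SE 0.37, edgeR adjusted p = 0.989) between replicate 1 and the others. Of the other targets of the list that were tested, Crabp2 (−0.50, SE 0.31), Nrip1 (0.39, SE 0.18), Stra6, Tgm2 and Cyp26b1 were not called. Cyp26c1 and Cdx1 had 0 counts in all 9 libraries, and Hoxb1 did not pass the filter.

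**Figure D5:**
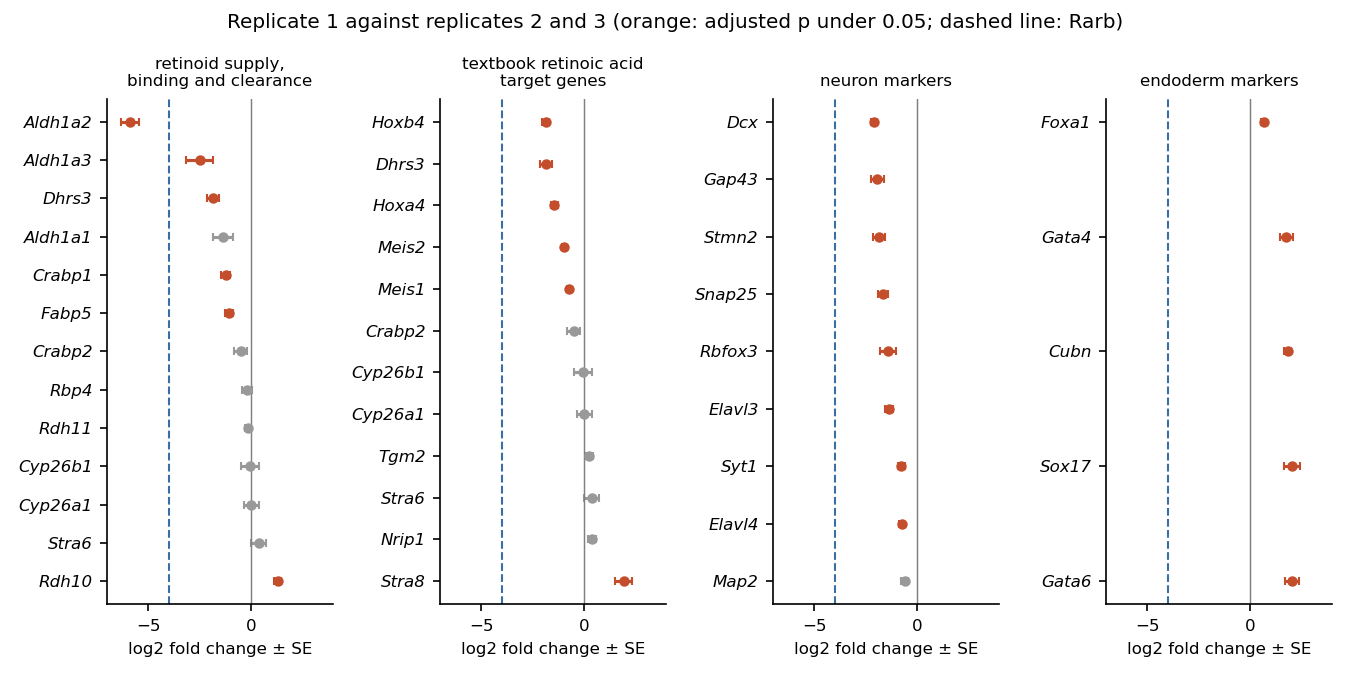
Log2 fold change of replicate 1 against replicates 2 and 3 (horizontal axis, with SE bars) for the tested genes of 4 lists, a gene per line. Orange points had an edgeR adjusted p under 0.05, grey points did not, and the dashed line marks Rarb at −3.98; Aldh1a2 alone lies to the left of that line.

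Among the cofactors of the receptors no gene passed the test by replicate number, where 12.8% of all genes were called. The lowest edgeR adjusted p between replicate 1 and the others was 0.216 (Nrip1) among 7 corepressor genes and 0.0554 (Ncoa3) among 8 coactivator genes, and the medians were 0.10 and 0.03 on the log2 scale. Ncor1, the most abundant corepressor, had 95.3 to 143 FPKM. Among 8 tested other partners of RXRs the lowest edgeR adjusted p was 0.0523, for Pparg, which had 0.134, 0.188 and 0.798 FPKM in replicate 1 and 0.874 to 2.09 FPKM elsewhere, without overlap.

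Genes of the pathway lists were also followed over time, in the comparison where 18.7% of all genes were called. From 4.5DDC to 6.5DDC, 1 of 7 corepressor genes was called (Lcor, higher at 0.51, SE 0.15), and 3 of 8 coactivator genes, with Ncoa1 (0.68, SE 0.18) and the acetyltransferase Kat2b (0.68, SE 0.19) higher and the arginine methyltransferase Carm1 lower (−0.73, SE 0.16). Carm1 held 64.9 ± 10.8 FPKM (SD, n = 3) at 4.5DDC and 36.7 ± 12.4 at 6.5DDC, and 21.1% of its exonic bases overlap Yipf2 on the other strand. The medians of these lists were −0.04 and −0.18 beside 0.00 over all genes.

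Of 8 tested RXR partners, 2 were called from 4.5DDC to 6.5DDC, both higher, beside the 18.7% of all genes, while 6 of the 8 values were negative and the median was −0.36. Thra, the thyroid hormone receptor of neural tissue, had 24.2, 29.9 and 22.4 FPKM at 4.5DDC, 48.4, 50.4 and 52.7 FPKM at 5.5DDC, and 47.9, 67.6 and 86.7 FPKM at 6.5DDC. Every library of 6.5DDC was above every library of 4.5DDC, and the log2 fold change was 1.27 (SE 0.20, edgeR adjusted p = 0.00387). Nr4a2 (Nurr1), an orphan receptor of neuronal lineages, went from 2.59 FPKM or less to 5.45, 15.7 and 20.5 FPKM, at 2.96 (SE 0.42, edgeR adjusted p = 0.00273). Thra was above every RAR in all libraries, and 5.70% of its exonic bases overlap Nr1d1 on the other strand. Nr1h2, encoding an LXR, had 22.4 ± 9.99 FPKM at 4.5DDC and 14.8 ± 4.44 at 6.5DDC (SD, n = 3) and was not called.

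Transcripts of Crabp1 and Crabp2, which encode intracellular RA-binding proteins, declined. Crabp1 fell from 225 ± 86.3 to 36.0 ± 20.9 FPKM (SD, n = 3) between 4.5DDC and 6.5DDC, at −2.65 (SE 0.52, edgeR adjusted p = 0.00932), and Crabp2 fell from 262 ± 114 to 70.5 ± 18.0 FPKM, at −1.90 (SE 0.40, edgeR adjusted p = 0.0118). For both genes every library of 6.5DDC was below every library of 4.5DDC. Fabp5, with 111 ± 44.8 and 60.9 ± 9.62 FPKM, and Rdh11, with 28.2 ± 1.42 and 35.3 ± 4.58 FPKM, were not called. The retinol carrier Rbp4 rose (1.61, SE 0.31), as did Dhrs3 (2.67, SE 0.71) and Aldh1a3 (4.65, SE 1.22, on 0 to 33 counts), so that 3 of 13 genes of retinoid supply were higher and 2 lower. Of 12 tested textbook targets, 1 was higher (Dhrs3) and 1 lower (Crabp2), a share near the 18.7% of all genes, with a median of −0.04.

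Some cell type markers were called over this time, where 18.7% of all genes were called. The neuron markers had mean sums of 316, 456 and 661 FPKM at 4.5DDC, 5.5DDC and 6.5DDC, with 2 of the 9 (Syt1 and Map2) called as higher at 6.5DDC. None of the 9 values was negative, and the median was 1.23 on the log2 scale. Of 9 progenitor markers, Prom1, the gene of the sorting antigen, rose by 1.19 (SE 0.18) and Sox3 was called as lower (−1.80, SE 0.50). Of 5 tested crest and mesenchyme markers Twist1 was called as higher (0.74, SE 0.19), none had a negative value, and the median was 1.26. Of 5 tested endoderm markers none was called and none had a negative value, with a median of 1.35. Of 5 ventral hindbrain markers Nkx6-1 and Nkx6-2 were called as lower, the other 3 had values above 0, and the median was 0.03. Within either interval taken alone, no gene of these lists passed the test.

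Among the receptor genes, log2 CPM over the 9 libraries correlated at r = 0.93 between Rara and Rxra, 0.92 between Rara and Rarg and 0.91 between Rarg and Rxra. Rarb correlated with Rxrg at 0.79 and with Rara at 0.11. These coefficients describe 9 libraries that differ in depth, GC trend and replicate number. The part of these differences in the coefficients was not tested. Among 11992 candidate genes, those with the most similar pattern to Rarb were Chrna5 (r = 0.99), Cdh11 and Moxd1 (both r = 0.98), and to Rara they were Ssbp3, Neurl4 (both r = 0.99) and Mapk7 (r = 0.98). For Rxra they were Ttc7b, Rab11fip3 and Zmiz1 (each r = 0.98), for Rxrb Eef2, Abhd14a (both r = 0.99) and Plec (r = 0.98), and for the weakly counted Rarg and Rxrg they were Tacc2, Bin1 and Ankrd13b (r = 0.97, 0.96 and 0.96) and Gm13998, D930028M14Rik and Arhgap36 (r = 0.95, 0.93 and 0.93).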

How the data were processed

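RNA from NSCs sorted at 4.5DDC, 5.5DDC and 6.5DDC was analysed in 9 libraries, grouped by labelled time point and replicate number. The authors mapped reads to GRCm38 with TopHat2 2.0.4 and deposited estimated counts per gene made with HTSeq 0.6.1. Values that were not whole occurred in 98 of 38197 symbols, none a receptor gene. The tests had been planned for whole counts, and values were rounded for them. The deposited FPKM came from Cufflinks 2.1.1 and were used for levels. The deposited log2 values match log2 CPM of the counts and were not tested. Annotation release and strand setting are not given in the sources used here. bcl2fastq 1.8.3, CASAVA and limma are also named in the submitters' processing notes.

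Counts were tested with edgeR 4.0.16 (R 4.3.3) by quasi-likelihood after filterByExpr and TMM (factors 0.951 to 1.04). The model had the time point as factor (6 residual degrees of freedom, common dispersion 0.0733), with a term for replicate 1 added for the replicate comparison (5 residual degrees of freedom). Benjamini-Hochberg adjustment ran over 14742 genes at 0.05. FPKM and shares were compared by two-sided exact permutation tests. Alternatives used limma 3.58.1, DESeq2 1.42.0, other scalings, filters, pseudocounts of 1 and 0.1, a replicate block and each library left out. Plots were drawn with matplotlib 3.10.9, and tables made with scipy 1.17.1, numpy 2.4.6 and pandas 2.3.3 under Python 3.11.15. The procedure was tested on simulated data. Likeness was Pearson's r of log2 CPM (prior count 2) among tested genes averaging 2 FPKM or more. Named genes are the 6 receptors, called genes of the pathway lists, up to 4 most abundant genes per list, marker genes and the 3 genes most like each receptor; Top2b, Yipf2, Nr1d1 and other genes outside this rule were named after their values or positions were seen. GC content was had for 93.2% of tested genes. The members and lists were chosen with earlier results of these data known. A planned comparison of protein sequences was not run. Some listed genes were not analysed here.

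Deviations of libraries with the same replicate number correlated at 0.74, 0.39 and 0.45 between 4.5DDC and 5.5DDC and at 0.45, 0.37 and 0.20 between 5.5DDC and 6.5DDC, while replicate 3 at 4.5DDC and replicate 2 at 5.5DDC correlated at 0.39 and replicate 3 at 5.5DDC and replicate 2 at 6.5DDC at 0.41. All same-numbered pairs were over 0.1, the bound taken here for pairing libraries of adjacent time points, but the correlations do not distinguish replicates 2 and 3. The replicate block is an alternative.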

Additional observations from a re-analysis of the deposited data

How the results depend on the processing

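The call of Rarb between replicate 1 and replicates 2 and 3 and the absence of calls among receptors in both adjacent intervals and in the difference between the intervals held under every alternative run. Over all values for single receptors under the alternatives, 711 kept direction and side of the threshold, 11 lost a call, 5 gained one and 45 changed sign, none of these 45 past the threshold.

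In the replicate comparison 2 receptors were called, and 1 (Rarb) with limma voom, with limma on log2(FPKM + 1) or log2(FPKM + 0.1), and in fits of the time points other than 4.5DDC or other than 5.5DDC; leaving out 1 library gave 1 to 2, and the GC offset gave 3, with Rxra added (edgeR adjusted p = 0.0127). Receptors called from 4.5DDC to 6.5DDC went from 0 to 1 with the replicate block (Rxra, −0.63, adjusted p = 0.0466 in edgeR), although same-numbered libraries of these time points correlated at 0.38, −0.04 and −0.22 and so do not pair; the block changed no other receptor call. Leaving out 1 library gave 0 to 2 receptors from 4.5DDC to 6.5DDC and 0 to 1 for any difference. Receptor levels without overlap between time points numbered 3 of 18 in FPKM and 3 to 7 with 1 library left out, and shares and ratio 0, and 0 to 3.

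Counts of all genes moved more. From 4.5DDC to 5.5DDC 11 genes became 25 without a filter, 495 with DESeq2, 7 with limma on log2(FPKM + 1), 212 with the replicate block, 1 with only 6 libraries, 20 with the GC offset, 540 with the GC offset and replicate block, 485 with replicates 2 and 3 only, and 1 to 28 without a library. From 5.5DDC to 6.5DDC 33 became 55 with library totals, 78 without a filter, 21 with limma voom, 662 with DESeq2, 12 and 0 with limma on log2(FPKM + 1) and log2(FPKM + 0.1), 195 with the replicate block, 0 with 6 libraries, 62 with the GC offset, 448 with the GC offset and replicate block, 728 with replicates 2 and 3 only, and 0 to 196 without a library. From 4.5DDC to 6.5DDC 2763 became 4672 with the GC offset and replicate block, 4586 with replicates 2 and 3 only and 1125 to 3132 without a library. For any difference 1420 became 2975 with DESeq2, 2180 with the replicate block, 3353 with the GC offset and block, 3316 with replicates 2 and 3 only and 323 to 1831 without a library. The difference between intervals gave 0 to 2 without a library. The replicate comparison's 1891 became 1190 with limma on log2(FPKM + 1), 1253 and 568 without 4.5DDC or 5.5DDC, and 1027 to 2171 without a library. The cause was not tested.

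Log2 fold changes of some uncalled receptors changed sign. Rarg from 4.5DDC to 5.5DDC (−0.01) gave 0.0121 with library totals, 0.0113 without a filter, 0.0156 with at least 1 CPM in at least 3 libraries, 0.0715 and 0.20 with limma on log2(FPKM + 1) and log2(FPKM + 0.1), and 0.0812 with replicates 2 and 3 only. Rxrg from 5.5DDC to 6.5DDC gave −0.00043 with limma on log2(FPKM + 1) and −0.22 with replicates 2 and 3 only. Rarb over that interval gave −0.0524 with replicates 2 and 3 only and −0.00952 with the GC offset. Rxrb in the replicate comparison gave −0.13 in the time points other than 5.5DDC. With the GC offset, alone and with the replicate block, values from 5.5DDC to 6.5DDC went from −0.33 to 0.17 and 0.17 (Rarg) and from −0.61 to 0.0813 and 0.0876 (Rxrb). From 4.5DDC to 6.5DDC Rxrb went from −0.30 to 0.16 and 0.16. The difference between intervals went from −0.32 to 0.35 and 0.37 (Rarg), from −0.53 to 0.0172 and 0.0165 (Rxra) and from −0.92 to 0.00697 and 0.0167 (Rxrb). The GC offsets and the fit of replicates 2 and 3 only were chosen after seeing the data.

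With 1 library left out, log2 fold changes from 4.5DDC to 5.5DDC ranged from −0.90 to 0.22 (Rarb), −0.17 to 0.16 (Rarg), −0.12 to 0.11 (Rxra) and −1.37 to 0.28 (Rxrg). From 5.5DDC to 6.5DDC they ranged from −0.56 to 0.54 (Rarb) and −0.73 to 0.52 (Rxrg), and from 4.5DDC to 6.5DDC from −0.88 to 0.24 (Rarb) and −1.61 to 0.35 (Rxrg). The difference between intervals ranged from −0.78 to 1.26 (Rarb) and −0.21 to 1.86 (Rxrg), and Rxrb between replicate numbers from −0.14 to 0.41. With limma voom on all libraries, the difference between intervals for Rarb was 2.66 in place of 0.39.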

Other observations

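There were 3 libraries per time point, and a missing call for Rara or Rxra is no evidence of equal levels. Rarg and Rxrg rest on few counts. Transcript levels do not give receptor protein, ligand or activity. Isoforms of the receptors were not separated. Without an untreated library, the response of any receptor to RA or SAG cannot be read from these data. What divided replicate 1 from replicates 2 and 3, including culture, sorting and library preparation, cannot be told apart.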
